A study of Mus musculus with 8 samples.

Results

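The nuclear-encoded respiratory chain subunits were taken as the protein-coding genes whose symbol begins with Ndufa, Ndufb, Ndufc, Ndufs, Ndufv, Uqcr, Cox4, Cox5, Cox6, Cox7, Cox8 or Atp5 in an annotation of the mouse genome GRCm38, leaving out the Ndufaf assembly factors. This gave 81 of the 52636 genes counted, with 38 genes in complex I, 8 in complex III, 18 in complex IV and 17 in complex V. The muscle isoforms Cox6a2, Cox7a1 and Cox8b and 5 other tissue isoforms (Cox4i2, Cox6b2, Cox7b2, Cox8c and Ndufa4l2) were set apart from the 73 ubiquitous genes. Of the 81 genes, 79 passed the filter on low counts and were tested among 20546 genes. Cox8c had no read in any library, and Cox7b2 reached at most 0.212 counts per 1000000 reads counted (CPM).

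Lungs of male wild-type C57BL/6 mice gave 8 RNA sequencing libraries, with 4 groups of 2. PBS was instilled into control mice (PBS in the plots). The COPD mice model, called COPD mice here (PPE+LPS in the plots), was made with an enzyme that destroys alveolar walls, porcine pancreatic elastase (PPE), and later with a bacterial endotoxin, lipopolysaccharide (LPS). Each kind of mice was fed either the control diet or a diet with 2% TJ-41 (hochuekkito), a Japanese herbal medicine. Feeding started at 8 weeks of age, the PPE or PBS instillation followed at 10 weeks, and the LPS or PBS instillations started at 12 weeks. The age at RNA collection and the number of mice behind each library were not given in the sources used here, so p-values measure only the spread between libraries, which may be technical.

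The mitochondrial respiratory chain passes electrons from NADH through complex I, ubiquinone, complex III and cytochrome c to complex IV, where oxygen is reduced, and the proton gradient built on the way drives ATP synthesis by complex V. Most subunits are encoded in the nucleus, made in the cytosol and imported, while a core set is encoded in mitochondrial DNA. Some complex IV subunits exist in tissue-specific forms, with heart and skeletal muscle using Cox6a2, Cox7a1 and Cox8b in place of Cox6a1, Cox7a2 and Cox8a. In the lung, Cox4i2 is a known alternative form of Cox4i1.

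The libraries held 18767295 to 20888042 counts, and reads of the 81 genes made up 0.273% to 0.446% of them. A total of 3 counts corresponded to 0.144 to 0.160 CPM. The 13 mitochondrially encoded subunits were listed at 0 in all 8 libraries, so only the nuclear side of the chain could be described. The labelled tissue fitted its markers, since 8 lung epithelial markers such as Sftpc and Scgb1a1 summed to 32860 to 62960 CPM and none was at 0. One pair of replicates stood apart. The SD of the log2 difference between replicates over genes was 0.74 in COPD mice on control diet and 0.34 to 0.41 in the other groups, and replicate 2 of that group carried much of the spread described below. In bulk tissue, fewer cells of a type and less RNA per cell cannot be told apart.

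Promoters, windows of 300 bases from 250 before to 50 after a RefSeq gene start on GRCm38.p6, were available for 64 of the 81 genes in 69 windows. Genes with no window included Ndufa2, Ndufa4l2, Ndufb9, Ndufs1, Uqcrb, Uqcrc2, Uqcrq, Cox4i1, Cox4i2, Cox6a2, Cox6c, Cox8c, Atp5a1, Atp5f1, Atp5mpl and Atp5s. Both strands were searched for the letters bound by factors known for the transcription of respiratory genes. The NRF1 letters GCGCANGCG stood in 27.5% of the subunit windows and in 6.25% of all 32851 windows. The ETS letters CCGGAAG stood in 20.3% against 8.86%, the YY1 letters AAGATGGCG in 10.1% against 1.4%, the ERR letters AAGGTCA in 10.1% against 4.72%, and the CRE letters TGACGTCA in 5.80% against 1.79%. Sp1 letters (GGGCGG) were found in 37.7% of the subunit windows and 35.7% of all windows, and TATA letters (TATAAA) in 11.6% and 13.6%. Windows of 4 of the isoforms set apart held none of the NRF1, ETS, YY1, ERR or CRE letters. The muscle isoforms Cox7a1 and Cox8b are shown beside their ubiquitous paralogs Cox7a2 and Cox8a because the paralogs are expressed in the same tissue at different levels, described below. Capitals mark each match to one of these letter strings on either strand, and no matches overlap. Cox7a1 (chr7:30183921-30184220, plus strand) held no match, Cox7a2 (chr9:79759804-79760103, minus strand) 1 Sp1 match, Cox8b (chr7:140900397-140900696, minus strand) 1 TATA match and Cox8a (chr19:7217567-7217866, minus strand) 2 ETS matches. A match describes letters and not a bound site.
Cox7a1: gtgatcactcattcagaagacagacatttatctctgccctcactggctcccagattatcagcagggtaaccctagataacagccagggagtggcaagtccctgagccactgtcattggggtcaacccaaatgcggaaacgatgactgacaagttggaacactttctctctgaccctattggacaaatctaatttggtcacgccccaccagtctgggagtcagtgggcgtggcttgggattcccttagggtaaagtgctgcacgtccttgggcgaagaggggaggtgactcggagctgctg
Cox7a2: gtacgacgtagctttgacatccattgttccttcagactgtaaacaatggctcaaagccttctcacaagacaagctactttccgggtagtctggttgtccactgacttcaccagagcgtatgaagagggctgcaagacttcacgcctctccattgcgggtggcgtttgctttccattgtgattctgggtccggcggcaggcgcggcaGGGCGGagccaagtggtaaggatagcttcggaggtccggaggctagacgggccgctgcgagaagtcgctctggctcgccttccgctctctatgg
Cox8b: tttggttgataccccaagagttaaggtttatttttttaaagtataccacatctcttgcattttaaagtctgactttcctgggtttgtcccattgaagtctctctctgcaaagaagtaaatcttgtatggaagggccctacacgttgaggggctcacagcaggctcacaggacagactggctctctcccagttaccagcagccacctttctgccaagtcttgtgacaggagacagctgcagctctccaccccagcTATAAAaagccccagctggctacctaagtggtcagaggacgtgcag
Cox8a: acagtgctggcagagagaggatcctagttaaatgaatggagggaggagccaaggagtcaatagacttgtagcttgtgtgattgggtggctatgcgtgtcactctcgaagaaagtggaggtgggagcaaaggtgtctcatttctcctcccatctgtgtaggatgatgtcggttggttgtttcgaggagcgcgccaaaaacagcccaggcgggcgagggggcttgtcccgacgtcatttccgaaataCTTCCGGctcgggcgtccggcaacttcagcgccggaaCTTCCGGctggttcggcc

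Levels were compared between genes per kilobase of transcript (CPM per kb, mean of the 8 libraries). The median gene of complex I stood at 31.2 CPM per kb, of complex III at 43.0, of complex IV at 34.4 and of complex V at 33.9, a narrow span. Within each complex the genes spread widely. The catalytic beta subunit Atp5b had 196 CPM per kb and the alpha subunit Atp5a1 166, both in complex V, against 3.57 for Atp5k, which encodes the e subunit. Complex I ran from 3.92 for Ndufb4 to 102 for Ndufb9, complex III from 12.6 for Uqcr11 to 57.4 for Uqcrc2, and the ubiquitous genes of complex IV from 7.47 for Cox5b to 149 for Cox4i1. The c subunit of complex V, which forms its rotor ring, is made from 3 genes with the same mature product. Atp5g3 supplied 88.1% ± 2.10 of their summed CPM per kb, Atp5g2 9.07% ± 1.64 and Atp5g1 2.82% ± 0.549 (SD, n = 8 libraries).

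The summed CPM of the 37 ubiquitous complex I genes, the NADH dehydrogenase, was 1296 and 979.5 in control mice on control diet, 1058 and 902 in control mice on TJ-41, 1067 and 1529 in COPD mice on control diet, and 1154 and 1111 in COPD mice on TJ-41. The 8 genes of complex III, the cytochrome c reductase, summed in the same order to 368 and 291, 306 and 265, 320.4 and 401, and 334 and 332 CPM. The 11 ubiquitous genes of complex IV, the cytochrome c oxidase, summed to 541 and 374, 383 and 335, 425 and 761, and 489 and 447 CPM. In these 3 complexes the highest library was replicate 2 of COPD mice on control diet and the lowest was replicate 2 of control mice on TJ-41. The 17 genes of complex V, the ATP synthase, summed to 1546 and 1227, 1265 and 1158, 1330 and 1636, and 1417 and 1367 CPM, with the same libraries highest and lowest. On the TJ-41 diet both libraries of COPD mice lay above both libraries of control mice in all 4 complexes, whereas on control diet the groups overlapped in all 4. After the length and GC correction described below, complex I overlapped on TJ-41 too, with 1102 and 980.5 CPM in control mice and 1083 and 1110 CPM in COPD mice, and the other 3 complexes did not.

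**Figure D1:**
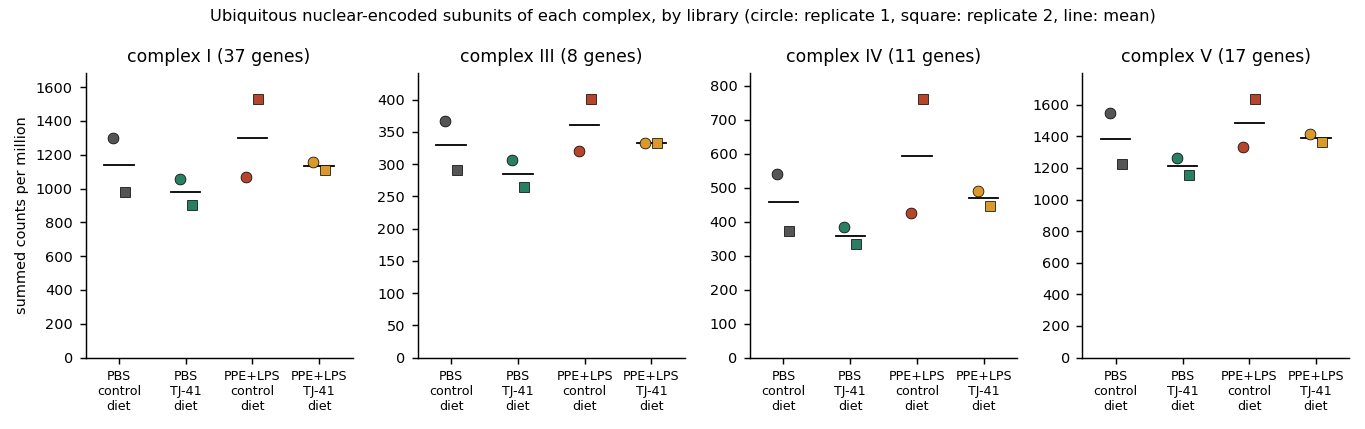
Summed CPM (vertical axis) of the ubiquitous subunit genes of complexes I, III, IV and V in each library of the 4 groups (horizontal axis), with circles for replicate 1, squares for replicate 2 and a line for the mean of 2. Replicate 2 of COPD mice on control diet was the highest in every panel, for example 761 CPM against 335 to 541 CPM outside its group in complex IV.

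The first comparison asked how the chain differed between COPD mice and control mice on control diet. The levels of 69 of 79 subunit genes were higher in COPD mice, with a median log2 fold change of 0.33, beside 0.0073 over all genes tested. No subunit passed a false discovery rate of 0.05 with a change beyond 2-fold, beside 0.122% of all genes. The smallest adjusted p among the subunits was 0.527 by edgeR's quasi-likelihood test after Benjamini-Hochberg adjustment. At an unadjusted p under 0.05 the same test gave 2 subunits, both higher, beside 4.68% of all genes, and DESeq2 gave 3 with 0 called. With all genes of at least 1 count the number higher was 7 (beside 3.59% of all genes). All 11 ubiquitous complex IV genes had positive values (median 0.45), as did 32 of 37 in complex I (0.31), 6 of 8 in complex III (0.51) and 16 of 17 in complex V (0.33). Both libraries of COPD mice lay above both control libraries for only 5 subunits (6.33%), beside 11.9% of all genes.

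Ndufa4, grouped with complex I by its symbol although its protein is now regarded as a complex IV subunit, had 31.2 and 20.7 CPM in control mice on control diet and 34.9 and 43.8 CPM in COPD mice on that diet. These groups did not overlap, and the log2 fold change was 0.66 ± 0.24 (SE), with an unadjusted p of 0.0206 in edgeR's quasi-likelihood test and a Benjamini-Hochberg adjusted p of 0.527. Uqcrb, a small ubiquinone-binding protein of complex III, had 28.9 and 17.4 CPM in control mice and 27.8 and 47.7 CPM in COPD mice. The Uqcrb groups overlapped, with a log2 fold change of 0.77 ± 0.32 and an adjusted p of 0.599 by the same edgeR test.

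On the TJ-41 diet 68 of 79 subunits were higher in COPD mice than in control mice, with a median log2 fold change of 0.25, beside -0.0016 over all genes. None was called by edgeR's quasi-likelihood test, beside 0.0779% of all genes, and the smallest Benjamini-Hochberg adjusted p was 0.773. No subunit reached an unadjusted p under 0.05 by edgeR, beside 3.55% of all genes higher at that level, and DESeq2 also gave 0. That count depended on which libraries set the spread. Fitting only the groups compared gave 24 subunits higher, beside 12.7% of all genes, and leaving out replicate 1 or replicate 2 of COPD mice on control diet, a group outside this comparison, gave 13 and 15, beside 9.65% and 9.86%. Both libraries of COPD mice lay above both control libraries for 42 subunits (53.2%), beside 28.9% of all genes. Uqcrc1, a core protein of complex III, had 66.8 and 51.6 CPM in control mice on TJ-41 and 77.9 and 75.5 CPM in COPD mice on TJ-41. Its log2 fold change was 0.36 ± 0.18 (edgeR adjusted p = 0.773). The flavoprotein subunit Ndufv1, which takes electrons from NADH in complex I, had 43.6 and 34.8 CPM against 54.6 and 50.2 CPM, a log2 difference of 0.41 ± 0.20. By complex, the medians were 0.23 in complex I, 0.36 in complex III, 0.35 in complex IV and 0.20 in complex V.

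Over both diets the median was 0.29, with 71 of 79 subunits higher in COPD mice, beside -0.0017 over all genes. Here 0.443% of all genes were called by edgeR's quasi-likelihood test and no subunit was, the smallest Benjamini-Hochberg adjusted p being 0.478. Only Uqcrh, the hinge protein of complex III, had an unadjusted p under 0.05, beside 6.18% of all genes higher at that level, and DESeq2 gave 7 such subunits and called 0. With all genes of at least 1 count the number was 13 (beside 4.79% of all genes), without replicate 1 of control mice on control diet it was 12 (5.86%), and without replicate 1 of COPD mice on control diet it was 53 (18.5%). Uqcrh had 28.2 and 18.9 CPM in control mice on control diet, 22.1 and 16.1 CPM in control mice on TJ-41, 25.8 and 50.8 CPM in COPD mice on control diet, and 27.0 and 22.1 CPM in COPD mice on TJ-41. These values overlapped between model and control mice, and the log2 fold change over both diets was 0.56 ± 0.25 (edgeR adjusted p = 0.478). Ndufa2, an accessory subunit of complex I, had 37.2 and 25.3, 24.6 and 22.02, 27.6 and 55.9, and 34.6 and 32.9 CPM in the same order of groups, with a log2 difference of 0.51 ± 0.24.

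The effect of the TJ-41 diet was compared first in control mice. The levels of 68 of 79 subunits were lower on TJ-41, with a median log2 fold change of -0.28, beside -0.0018 over all genes. None was called by edgeR's quasi-likelihood test (smallest Benjamini-Hochberg adjusted p 0.996), and 0% of all genes were called. At an unadjusted p under 0.05, 1 subunit was lower, Cox6a2, beside 0.535% of all genes, and DESeq2 also gave 1 and called 0. Fitting only the groups compared gave 11 subunits lower (beside 3.04% of all genes), and leaving out either library of COPD mice on control diet gave 14 (4.26% and 4.18%). Both TJ-41 libraries lay below both control diet libraries for 22 subunits (27.8%), beside 18.9% of all genes. The second smallest p belonged to Atp5mpl, the 6.8PL gene of complex V, which had 43.3 and 26.9 CPM on control diet and 28.2 and 22.02 CPM on TJ-41. Those values overlapped, and the log2 fold change was -0.47 ± 0.28.

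In COPD mice 70 of 79 subunits were lower on TJ-41 than on control diet, with a median of -0.33, beside -0.0148 over all genes. None was called by edgeR's quasi-likelihood test (smallest Benjamini-Hochberg adjusted p 0.991), beside 0.00487% of all genes. At an unadjusted p under 0.05, 5 subunits were lower (Uqcrb, Ndufa4, Atp5k, Cox7b and Cox6a2), beside 2.10% of all genes, and DESeq2 gave 11 and called 0. With all genes of at least 1 count the number lower was 13 (beside 1.93% of all genes). The groups did not overlap, with TJ-41 lower, for 20 subunits (25.3%), beside 12.5% of all genes. Uqcrb had 27.8 and 47.7 CPM on control diet and 20.8 and 20 CPM on TJ-41, a log2 fold change of -0.95 ± 0.32 (edgeR adjusted p = 0.991). For Ndufa4 the values were 34.9 and 43.8 CPM against 23.5 and 26.6 CPM, a log2 fold change of -0.71 ± 0.24. Atp5k, at the bottom of the ATP synthase levels, had 1.39 and 2.97 CPM against 0.688 and 0.718 CPM, a log2 fold change of -1.69 ± 0.58. All 3 genes were lower in both TJ-41 libraries, and the Atp5k difference rested on the fewest reads. Every ubiquitous gene of complexes IV and V had a negative value, with medians of -0.47 and -0.29, as did 31 of 37 genes of complex I (-0.29) and 5 of 8 of complex III (-0.45).

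Over both models 76 of 79 subunits were lower on TJ-41, with a median of -0.30, beside -0.0011 over all genes. No gene of any kind was called by edgeR's quasi-likelihood test, 0% of all genes, and the smallest Benjamini-Hochberg adjusted p of a subunit was 0.973. At an unadjusted p under 0.05, 9 subunits were lower, beside 1.44% of all genes, and DESeq2 gave 11 and called 0. The 9 were 3 of complex IV, 2 of complex V, 1 each of complexes I and III, and the muscle isoforms Cox6a2 and Cox7a1. With all genes of at least 1 count the number lower was 21 (beside 1.65% of all genes). Atp5k had 1.49 and 0.783 CPM in control mice on control diet and 0.837 and 0.318 CPM in control mice on TJ-41, and over both models its log2 fold change was -1.32 ± 0.42 (unadjusted p = 0.0119 and adjusted p = 0.973 by edgeR). The comparisons of COPD mice with control mice and of the diets share libraries and are not independent of each other.

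**Figure D2:**
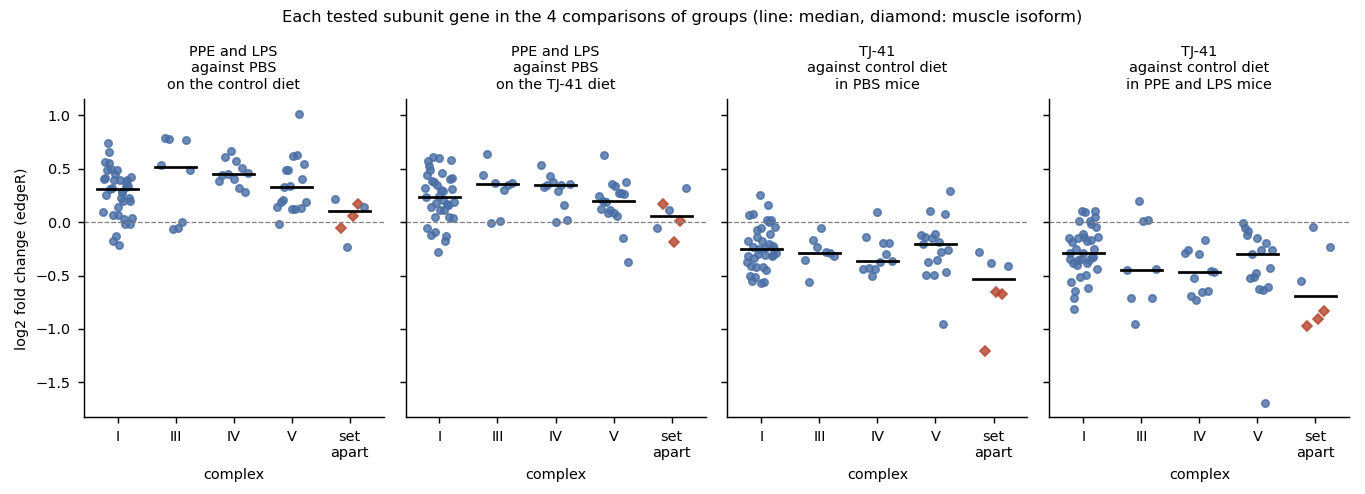
Log2 fold change (vertical axis) of each tested subunit gene by complex (horizontal axis) in the 4 comparisons of groups, with a line for the median and diamonds for the muscle isoforms. Most points lie above 0 in the 2 comparisons of COPD mice with control mice (69 and 68 of 79) and below 0 in the 2 diet comparisons (68 and 70 of 79), and none passed the false discovery rate.

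Whether the diet effect differed between COPD and control mice was tested as an interaction. The median log2 difference of the diet effects was -0.10, beside -0.0119 over all genes, with 32 of 79 values above 0. No gene was called by edgeR's quasi-likelihood test, 0% of all genes, and the smallest Benjamini-Hochberg adjusted p of a subunit was 0.999. One subunit, Ndufa4, had an unadjusted p under 0.05, beside 2.01% of all genes lower at that level, and DESeq2 also gave 1 and called 0. Ndufa4 had 26.9 and 27.1 CPM in control mice on TJ-41, which lay between the control diet libraries of those mice, and the log2 difference between its diet effects was -0.78 ± 0.33 (unadjusted p = 0.0433 by edgeR). The difference for Uqcrb was -0.78 ± 0.45. The median SE of a subunit was 0.31 in a comparison of groups, 0.22 over both diets or both models, and 0.44 in the interaction. The subunit medians in the comparisons of groups were about the size of 1 SE. The single genes named above, picked for their small p, mostly differed by more than 1 SE of their own.

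Most subunits had their highest and lowest values in the same libraries. Replicate 2 of COPD mice on control diet was the highest of the 8 libraries for 60 of 79 subunits (75.9%), and for 21.9% of all genes. It was also the lowest library for 34.6% of all genes, but for only 4 subunits. Replicate 1 of control mice on control diet was second highest for 49 subunits, and replicate 2 of control mice on TJ-41 was lowest for 47 (59.5%), beside 18.3% of all genes. Measured from each gene's median over the 8 libraries, the median of the 73 ubiquitous genes lay at 0.66 on the log2 scale in the first of these libraries, at 0.29 in the second and at -0.28 in the third, and between -0.16 and 0.13 in the other 5.

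Each comparison was repeated without each library in turn, where the library left alone in its group was assumed to vary like the others. Without replicate 2 of COPD mice on control diet, the median of the model comparison on that diet was -0.13, with 26 of 79 subunits higher, and the median of the diet comparison in COPD mice was 0.10, with 48 of 79 higher. Over both models the diet median then stood at -0.06, and over both diets the model median at 0.08. Without replicate 1 of the same group the medians were 0.68 and -0.69, and 9 subunits were called higher in COPD mice (for example Uqcrh and Cox6a1) and 13 lower on TJ-41 (for example Atp5e and Atp5k). In that fit 1343 and 728 of all genes were called (6.28% and 3.41%), from 25 and 1. Over both diets 1 subunit (Uqcr11, 1.04) and over both models 2 (Atp5k, -1.57, and Cox6a2, -1.33) were called there, beside 4.08% and 1.07% of all genes. The median of the model comparison on control diet was 0.60 without replicate 1 and 0.10 without replicate 2 of control mice. The diet median in control mice was -0.03 and -0.51 without the same libraries. Leaving out replicate 1 of these control mice put the diet median over both models at -0.16, and leaving out replicate 1 of COPD mice on control diet put it at -0.47. The interaction median, -0.10 with all libraries, turned to 0.145 when replicate 2 of control mice on control diet was left out, to 0.32 without the same replicate of COPD mice, and to 0.038 when replicate 1 of control mice on TJ-41 was left out. It was -0.41 without replicate 1 of COPD mice on control diet, and removing the same replicate of control mice gave -0.29. On the TJ-41 diet the model median lay between 0.17 and 0.37 in every such fit.

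Counts at an unadjusted p under 0.05 changed with single libraries in the other comparisons as well. For COPD against control mice on control diet, 2 subunits higher became 50 without replicate 1 of COPD mice (beside 16% of all genes), 11 without replicate 1 of control mice (3.66%), and 0 higher with 9 lower without replicate 2 of COPD mice (8.16% of all genes lower). For TJ-41 in COPD mice, 5 lower became 51 without replicate 1 of the control diet group (13.5%) and 0 lower with 6 higher without its replicate 2 (8.62% of all genes higher). For TJ-41 over both models, 9 lower became 52 without replicate 1 of COPD mice on control diet (13.9%), and removing the same replicate of control mice left 1 (0.584%).

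These departures differed with transcript length. The subunit genes were short, with a median transcript of 730 bases, beside 2665 bases over the 15044 protein-coding genes tested. Of the 79 subunits, 37 (46.8%) had transcripts under 700 bases, beside 2.83% of protein-coding genes. In replicate 2 of COPD mice on control diet the median departure was 0.86 for the 37 subunits under 700 bases, 0.66 for the 28 of 700 to 1500 bases and 0.07 for the 14 of 1500 bases and over. Protein-coding genes in the same length classes departed by 0.47, 0.22 and -0.10 there. Thus in this library the subunits under 1500 bases lay above other genes of their length class. In the comparison of diets over both models the subunit medians were -0.42, -0.29 and -0.08 from the shortest to the longest class, beside -0.25, -0.13 and 0.02 for protein-coding genes. In the model comparison over both diets they were 0.35, 0.27 and 0.11, beside 0.23, 0.14 and -0.02.

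After a smooth correction of each library for transcript length and GC content, the subunit median was 0.18 instead of 0.33 in the model comparison on control diet, 0.07 instead of 0.25 on TJ-41, -0.16 instead of -0.28 in the diet comparison in control mice and -0.27 instead of -0.33 in COPD mice. No subunit was called after the correction. At an unadjusted p under 0.05 by edgeR, 11 instead of 5 subunits were lower on TJ-41 in COPD mice (beside 3.17% of all genes). Over both models 12 instead of 9 were lower (2.46%). On control diet 0 instead of 2 were higher in COPD mice (6.18%), and over both diets 2 instead of 1 (7.22%). The part of RNA quality or library preparation in these differences was not tested.

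**Figure D3:**
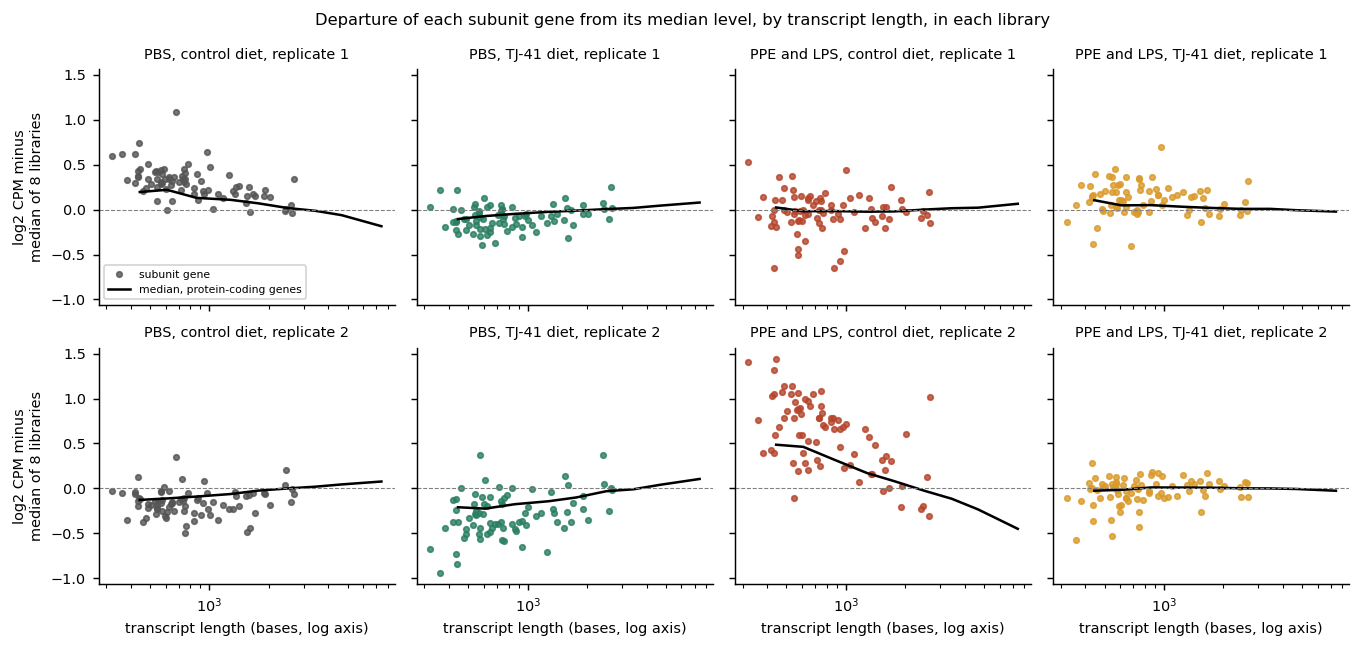
Log2 CPM of each subunit gene minus its median over the 8 libraries (vertical axis) against transcript length in bases (log horizontal axis), 1 panel per library, with a black line for the median of all protein-coding genes in length bins. In replicate 2 of COPD mice on control diet the shortest subunits lie highest, with a median of 0.86 under 700 bases against 0.07 at 1500 bases and over.

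The spread between libraries differed widely among the subunits. Uqcrc2, a core protein of complex III, ranged over 0.37 on the log2(CPM + 0.5) scale (93.7 to 121 CPM), and it was lowest in the library where most subunits were highest. The iron-sulfur subunit Ndufs1 of complex I had 66.5 CPM in that library and 80.3 to 97.8 CPM in the other 7. Atp5b ranged from 323 to 438 CPM and Atp5a1 from 365 to 474 CPM, while Atp5g3 ranged from 94.2 to 130.2 CPM. By contrast, Ndufa3, an accessory subunit, ranged over 2.05 on that scale, with 12.5 CPM in replicate 2 of control mice on TJ-41 and 53.2 CPM in replicate 2 of COPD mice on control diet. Uqcr11, the smallest complex III subunit, ranged over 1.81 (3.33 to 13.0 CPM) and Atp5k over 2.09 (0.318 to 2.97 CPM), between the same libraries, and for so low a gene as Atp5k the added 0.5 CPM makes this range much narrower than that of the CPM values themselves. Other abundant subunits lay between these extremes. The accessory subunit Ndufb9 of complex I had 52.0 to 98.4 CPM, the Rieske iron-sulfur protein Uqcrfs1 42.9 to 62.3 CPM, Cox4i1 69.2 to 186 CPM, and the supercomplex factor Cox7a2l 81.4 to 136 CPM.

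Muscle isoforms were measurable in all 8 libraries. Cox6a2 (chr7:128205435-128206387, minus strand) had 16.0 and 9.45 CPM in control mice on control diet, 5.54 and 5.4 CPM in control mice on TJ-41, 7.57 and 15.7 CPM in COPD mice on control diet, and 5.4 and 7.03 CPM in COPD mice on TJ-41. All 4 TJ-41 libraries lay below all 4 control diet libraries. Among the 79 subunits tested this held for 1 (1.27%), and the share over all genes was not counted. The log2 fold change of the diet over both models was -1.09 ± 0.28, with an unadjusted p of 0.00397 and an adjusted p of 0.973 by edgeR's quasi-likelihood test after Benjamini-Hochberg adjustment. Over the alternative fits the value lay between -1.33 and -0.74, and it passed the false discovery rate only without replicate 1 of COPD mice on control diet.

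Cox7a1 had 7.22 and 3.76, 4.86 and 2.07, 4.48 and 6.46, and 3.02 and 3.08 CPM in the same order of groups, and its diet effect over both models was -0.78 ± 0.32 on the log2 scale (edgeR unadjusted p = 0.0371, adjusted p = 0.973). Cox8b had 3.93 and 2.30, 2.88 and 1.01, 2.24 and 4.40, and 2.49 and 1.44 CPM, with a diet effect of -0.75 ± 0.40. The TJ-41 and control diet libraries of these genes overlapped. Between COPD and control mice the 3 isoforms differed by -0.06 to 0.09 on the log2 scale over both diets, and the sign of each turned under at least 2 alternatives.

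Cox6a2, Cox7a1 and Cox8b are heart and skeletal muscle forms, and in mice a sleeve of heart muscle surrounds the pulmonary veins. All 12 heart muscle markers, such as Myh6, Myl7 and Tnnt2, were detected and none was at 0. They summed to 482 and 556 CPM in control mice on control diet, 628 and 401 CPM in control mice on TJ-41, 611 and 708.5 CPM in COPD mice on control diet, and 369.7 and 292 CPM in COPD mice on TJ-41. In COPD mice all 12 were lower on TJ-41, each with an unadjusted p under 0.05 and none called, with a median log2 fold change of -1.0004 beside -0.90 for the 3 muscle isoforms. In control mice 5 of the 12 were higher and 7 lower on TJ-41, with a median of -0.07 beside -0.67 for the muscle isoforms. The medians of markers and isoforms were thus of like size between diets in COPD mice but not in control mice, and whether the content of heart muscle set the isoform levels was not tested. Of 8 skeletal muscle markers 5 passed the filter, summing to 12.6 to 24.5 CPM, and of 6 brown fat markers 3 passed, summing to 2.72 to 3.97 CPM, with Ucp1 at 0 in 4 libraries.

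**Figure D4:**
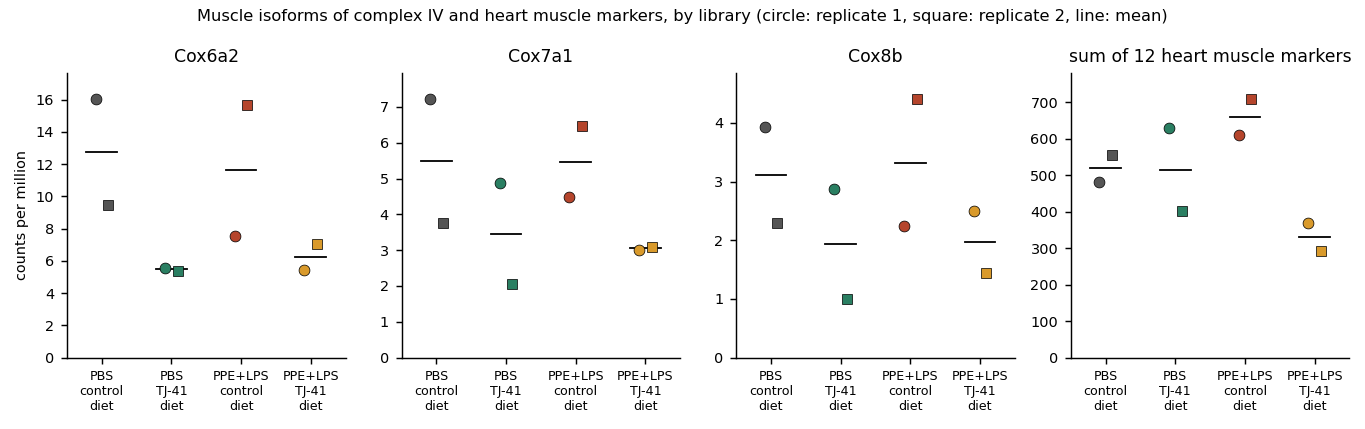
CPM (vertical axis) of the muscle isoforms Cox6a2, Cox7a1 and Cox8b and the summed CPM of 12 heart muscle markers in each library of the 4 groups (horizontal axis), with circles for replicate 1, squares for replicate 2 and a line for the mean of 2. For Cox6a2 the 4 TJ-41 libraries (5.4 to 7.03 CPM) lie below the 4 control diet libraries (7.57 to 16.0 CPM), while the markers are lowest in COPD mice on TJ-41 only.

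A ratio of paralogs within a library removes what acts on both genes alike. Counted as CPM per kb, Cox6a2 made up 16.2% ± 4.06 (SD, n = 8 libraries) of its pair with Cox6a1. Its share was 23.5% and 18.5% in control mice on control diet, 13.1% and 15.8% in control mice on TJ-41, 19.4% and 14.8% in COPD mice on control diet, and 10.9% and 13.5% in COPD mice on TJ-41. The diets did not overlap within control mice or within COPD mice. Shares are given as a description, with no test. Cox7a1 made up 22.2% ± 4.71 of its pair with Cox7a2, and Cox8b 5.45% ± 1.61 of its pair with Cox8a. Cox7a1 shares overlapped between diets, with 28.87% and 24.62% against 28.17% and 17.09% on TJ-41 in control mice. In COPD mice they were 22.63% and 19.8% against 16.56% and 19.84% on TJ-41. Cox8b shares overlapped in control mice (7.053% and 6.155% against 7.751% and 3.005% on TJ-41). In COPD mice they did not (5.55% and 5.522% against 5.04% and 3.536%).

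Cox4i2 made up 28.2% ± 3.62 of its pair with Cox4i1, with 27.8% and 31.6% in control mice on control diet, 30.2% and 33.8% in control mice on TJ-41, 28.0% and 26.6% in COPD mice on control diet, and 23.7% and 23.6% in COPD mice on TJ-41. In COPD mice the share lay below both control libraries on TJ-41 but overlapped them on control diet. Cox6b2, known as a testis form of Cox6b1, made up 15.8% and 18.7% of its pair in control mice on control diet, 16.1% and 19.1% in control mice on TJ-41, 10.1% and 9.86% in COPD mice on control diet, and 16.9% and 13.2% in COPD mice on TJ-41. It was lowest in COPD mice on control diet, and 5 testis markers summed to no more than 0.212 CPM in any library. Ndufa4l2, a homolog of Ndufa4 known from hypoxia, made up 26.0% and 33.0% of its pair in control mice on control diet, 23.7% and 21.5% in control mice on TJ-41, 20.4% and 23.4% in COPD mice on control diet, and 31.5% and 25.5% in COPD mice on TJ-41. The level of a share depends on the lengths used. With the length of all annotated exons, chosen after seeing the data, the mean shares were 42.6% for Cox4i2, 9.18% for Cox6b2 and 46.6% for Ndufa4l2.

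In the count model these isoforms did not pass the test in any comparison. Cox4i2 ran from 33.9 to 65.1 CPM, Cox6b2 from 5.01 to 10.8 CPM and Ndufa4l2 from 15.04 to 27.1 CPM, each highest in replicate 2 of COPD mice on control diet. Among the ubiquitous paralogs, Cox6a1 ran from 24.2 to 75.6 CPM and Cox8a from 49.6 to 115 CPM, again highest in that library. Of 8 pericyte and vascular smooth muscle markers, cells known to use Cox4i2 and Ndufa4l2, none was called over both diets or over both models, and their sum was 403 to 673.5 CPM.

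**Figure D5:**
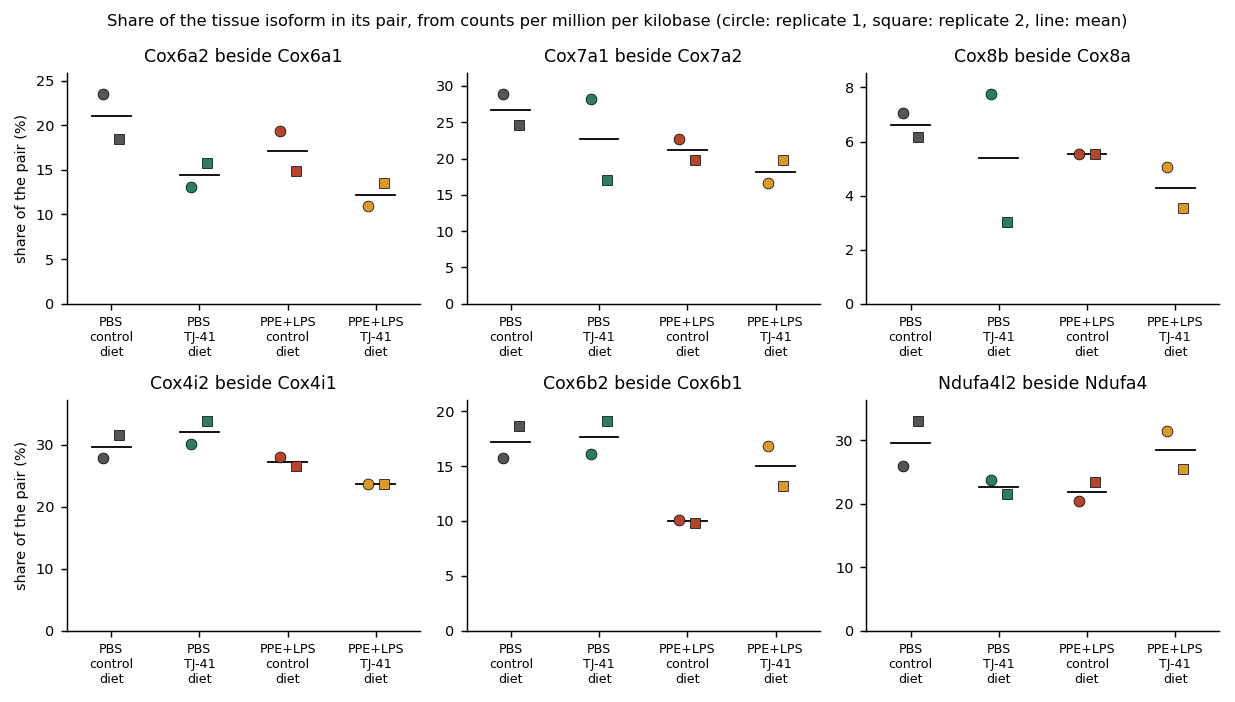
Share of each tissue isoform in its paralog pair, in percent of summed CPM per kb (vertical axis), in each library of the 4 groups (horizontal axis), with circles for replicate 1, squares for replicate 2 and a line for the mean of 2. The Cox6a2 share was 10.9% to 15.8% on TJ-41 and 14.8% to 23.5% on control diet, and the Cox6b2 share was lowest, at 9.86% and 10.1%, in COPD mice on control diet.

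Most other mitochondrial gene lists had medians closer to 0. These lists were not matched to the subunits for transcript length. Subunits of 1500 bases and over also had medians closer to 0 than shorter subunits, as given above. Whether the lists differed from subunits of like length was not tested. The 4 subunits of complex II, succinate dehydrogenase, are all nuclear and summed to 357 to 427 CPM, with medians over both diets and both models of 0.13 for COPD mice and -0.10 for TJ-41. Of 43 assembly factors 40 were tested, 30 of them higher in COPD mice (median 0.09) and 30 lower on TJ-41 (-0.12), with 0 called and 1 at an unadjusted p under 0.05 in each comparison by edgeR. The 12 regulators of mitochondrial biogenesis, among them Ppargc1a, Nrf1, Gabpa and Tfam, had medians of -0.02 and 0.03 and 0 called by edgeR, with 1 lower at an unadjusted p under 0.05 in the model comparison. Mitochondrial ribosomal proteins had medians of 0.14 and -0.18 over 77 genes. Cytosolic ribosomal proteins, another set of short transcripts, had 0.44 and -0.34 over 82 genes, with 81 higher in COPD mice and 82 lower on TJ-41 and 0 called. These medians were larger than those of the respiratory chain subunits. The 4 chain genes outside the symbol rule (Cyc1, Cycs, Usmg5 and Atpif1) had medians of 0.27 and -0.09.

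Lists of other processes and of cell types the lung holds were measured in the same libraries. Of 15 circadian clock genes 10 were called over both diets by edgeR's quasi-likelihood test, 7 higher and 3 lower in COPD mice, and none over both models in the diet comparison. Of 12 hypoxia targets 9 were higher in COPD mice (median 0.30) with 1 called lower. Macrophage markers summed to 628 to 827 CPM in control mice and to 1016 to 1561 CPM in COPD mice, with 0 of 8 called over both diets. Most of that sum was Chil3, a secreted chitinase-like protein, with 373 to 486 CPM in control mice and 639 to 1295 CPM in COPD mice. Siglecf, a marker of alveolar macrophages and eosinophils, had lower values in COPD mice (2.68 to 9.28 CPM against 11.9 to 22.1 CPM). Among B and plasma cell markers, which summed to 223 to 375 CPM and 422 to 1038 CPM, 1 of 6 was called higher. Neutrophil markers summed to 61.2 to 353 CPM and white fat markers to 24.8 to 41.9 CPM over the 8 libraries, with none of either list called over both diets. The part of any of these cell types in the subunit levels was not tested.

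Many subunit genes resemble other sequences. By runs of 50 bases, 49 of 81 subunits shared transcript sequence with another gene and 36 with a pseudogene, most of all Atp5o (41.6% of its runs), Atp5g2 (38.3%), Ndufb6 (31.6%), Ndufa13 (28.5%) and Uqcrb (25.5%). No gene shared 50% or more. Exons of 27 subunits overlapped a gene on the opposite strand, for example Cox6a2 with Itgad, Ndufa4l2 with Shmt2 and Ndufa2 with Tmco6. The strand setting and the handling of reads with several matches are not given in the sources used here, so the levels of these genes are uncertain to that extent.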

How the data were processed

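RNA sequencing of lung gave 8 libraries in 4 groups of 2, grouped by the deposited labels, in which the diet appears as TJ41 and as TJ4. The authors deposited raw read counts, whole numbers for each Ensembl gene without normalization. The submitters' processing notes name HISAT2, edgeR and mm10. The methods of the study also name CLC Genomics Workbench, without saying for which step. Which program counted the reads, the annotation release and the strand setting are not given in the sources used here. Of 52636 identifiers 52489 were named from GENCODE M21 on GRCm38.

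CPM is the count per 1000000 of the deposited total. Tests used edgeR 4.0.16 (R 4.3.3, limma 3.58.1) with TMM factors of 0.935 to 1.023, a quasi-likelihood fit of 4 group means to all 8 libraries (4 residual degrees of freedom, common biological coefficient of variation 0.208), and the default filter (count of 10, total of 15). Genes were called at a false discovery rate of 0.05 and a log2 fold change beyond 1. Log2 departures of a library used an offset of 0.5 CPM, and the length and GC correction a loess span of 0.5. The depth allows 3 counts to be seen at 0.144 to 0.160 CPM, for counting error only. The scripts were tested on simulated data.

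Genes named were the isoforms set apart with their paralogs, the 3 most abundant members and the member of widest range in each complex, and the 2 members with the smallest p in each comparison. An item that this rule names is not reported here. Genes outside this rule, given as ends of a range, as gene counts of 5 or fewer, as examples, or as members of the other lists, were chosen after their values were seen. The members and lists were chosen with earlier results of these data known. Alternatives were relative log expression factors, library size alone, a fit of the compared groups alone, other filters (genes with at least 1 count or averaging 1 CPM or more), DESeq2 1.42.0, a replicate block, the length and GC correction, leaving out each library, and the exon union length. Replicates differed by a chi-square of 12.02 to 88.98 per gene, beyond sampling noise.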

Additional observations from a re-analysis of the deposited data

Results flagged for a closer look

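Ndufa4 and the share of Ndufa4l2 were the only ones of 44 results checked in which all libraries of both groups lay on opposite sides under the same contrast. How often such a pattern arises over all genes was not counted. For Ndufa4 the mean of COPD mice lay 13.4 CPM above that of control mice on control diet, while on TJ-41 the difference was -1.98 CPM. The TJ-41 libraries lay close together, with 26.93 and 27.11 CPM in control mice and 23.46 and 26.61 CPM in COPD mice. These CPM are not scaled by TMM factors, and the separation was not checked with them. In the count model the interaction was -0.78 on the log2 scale (edgeR unadjusted p = 0.0433, adjusted p = 0.999).

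The share of Ndufa4l2 in its pair with Ndufa4 differed between COPD and control mice by -7.59 percentage points on control diet and by 5.91 points on TJ-41. Likewise, TJ-41 against control diet gave -6.89 points in control mice and 6.6 points in COPD mice. These differences of shares were not tested. The same 8 libraries and the same gene Ndufa4 stand in both results. Groups of 2 libraries were not tested for outlying libraries.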

How the results depend on the processing

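With 2 libraries per group, the median SE was 0.31 on the log2 scale, and differences of the size seen in the subunits did not pass the test. The number of called subunits stayed at 0 in all 7 comparisons under every alternative except without replicate 1 of COPD mice on control diet. Leaving out single libraries gave 0 to 9 called for COPD against control mice on control diet, 0 to 13 for TJ-41 in COPD mice, 0 to 1 over both diets and 0 to 2 over both models. Subunit medians without single libraries ranged from -0.127 to 0.679 (COPD against control mice on control diet), 0.169 to 0.367 (on TJ-41), -0.513 to -0.035 (TJ-41 in control mice), -0.693 to 0.097 (TJ-41 in COPD mice), -0.413 to 0.322 (interaction), 0.083 to 0.426 (over both diets) and -0.47 to -0.064 (over both models). The libraries behind these ends are named in the report, except for both ends on TJ-41 and the upper end over both diets.

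The replicate numbers did not pair the libraries (correlation of deviations -0.234 to 0.108 over the 6 pairs of groups). With the replicate block the medians of the first 4 of these comparisons were 0.323, 0.246, -0.282 and -0.331, 0 subunits were called, 21 instead of 25 genes were called on control diet, and the COPD value of Cox7a1 turned to 0.00444. With the length and GC correction the mean summed CPM moved beyond the spread between replicates to 1096 in complex I, 328.3 in complex III and 1355 in complex V of COPD mice on TJ-41, and to 397.9 in complex IV of control mice on TJ-41. Scaling by TMM gave 330 for complex III of COPD mice on TJ-41. The exon union length gave mean shares of 42.61% for Cox4i2, 9.181% for Cox6b2 and 46.6% for Ndufa4l2.

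Of the single genes followed through every alternative, signs turned only for isoforms set apart, none of them called. Over both diets the COPD value under the length and GC correction was -0.15 for Cox6a2, -0.276 for Cox8b and -0.163 for Cox4i2. Without single libraries it ranged from -0.289 to 0.292 for Cox6a2, -0.305 to 0.288 for Cox7a1, -0.236 to 0.541 for Cox8b, -0.226 to 0.302 for Cox4i2 and -0.425 to 0.189 for Cox6b2. The TJ-41 value of Cox6b2 over both models ranged from -0.463 to 0.155. The cause was not tested.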
